A study of Homo sapiens with 6 samples.

Results

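PTGS2, which encodes the inducible cyclooxygenase COX-2, and PTGER4, which encodes the prostaglandin E2 receptor EP4, were examined in Hs578T, a long-established cell line from a human breast carcinoma that has a mesenchymal form and lacks the oestrogen receptor. They are 2 of 14884 genes with a named probe set on the arrays, each with 1 probe set. Both genes were chosen by their higher values on the siCSRP2 arrays in this same comparison, so their own differences are given as a description, with no test.

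The siCSRP2 group held 3 arrays of Hs578T cells transfected with small interfering RNA against CSRP2, an actin-bundling LIM domain protein, and the siControl group held 3 arrays of cells transfected with a non-targeting RNA. Both groups were grown with serum and insulin, received the same lipid transfection reagent, were moved to smaller wells 24 h later and were lysed 48 h after that. Untransfected cells were not analysed here, the sequences of the RNAs were not given in the sources used here, and all arrays come from 1 cell line. Total RNA of each sample was hybridised to 1 array, which gave 1 log2 value per probe set, so that a difference of 1 is a 2-fold difference in signal.

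In prostanoid signalling, phospholipases free arachidonic acid from membrane lipids, the cyclooxygenases PTGS1 and PTGS2 turn it into prostaglandin H2, and terminal synthases make the individual prostanoids. PTGS1 is made constantly in many tissues, whereas PTGS2 is an early response gene induced by cytokines, growth factors and stress. Prostaglandin E2 acts through the EP receptors. Of these, EP4 couples to the stimulatory G protein and raises cyclic AMP, which activates protein kinase A and CREB family factors. The signal ends through uptake and oxidation, in which the dehydrogenase HPGD and the reductase PTGR1 take part. In breast tumours, raised PTGS2 and EP4 signalling has been linked to inflammation and invasion.

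The targeted gene was examined first. CSRP2 measured 3.25, 3.76 and 4.26 on the siCSRP2 arrays, against 3.69, 4.01 and 4.35 on the siControl arrays (log2 difference -0.26, SE 0.26, limma adjusted p = 0.583). With a replicate block, a term in the fit for the number that an array of each group shares, the adjusted p was 0.188. The groups overlapped, although the siCSRP2 array was lower in 3 of 3 pairs of equal replicate number, and the exact two-sided permutation test gave p = 0.5, where 0.1 is the smallest p that 3 against 3 can give. CSRP2 therefore does not check the labels. Over all 53617 probe sets the array medians were 2.80 to 2.82 for siCSRP2 and 2.70 to 2.76 for siControl, with SDs of 1.29 to 1.32 and 1.35 to 1.38. All 8 measured mesenchymal markers were above the median gene (2.99), as were 5 of 10 epithelial and 2 of 5 leukocyte and endothelial markers, and the oestrogen receptor gene ESR1 was below it at 2.76 ± 0.20 in siCSRP2 and 2.57 ± 0.08 in siControl (SD, n = 3 each). Of the mesenchymal markers AXL, VIM, FN1 and SNAI2 fell in limma (4 of 8, where 6.54% of all genes fell), with none of these calls kept without siControl 2, while no epithelial, leukocyte or endothelial marker passed. Of 14 genes of interferon response and RNA sensing, HERC5, IFIT2, RSAD2 and IFIT1 rose (4 of 14, where 0.8% of all genes rose), again with none kept without siControl 2. Their part in the results below was not tested.

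PTGS2 and PTGER4 were both higher in siCSRP2, with PTGS2 the more variable of the pair between arrays. PTGS2 measured 8.57, 9.53 and 9.90 on the siCSRP2 arrays, against 7.05, 7.42 and 8.90 on the siControl arrays. The siControl 3 value was above that of siCSRP2 1, so the groups overlapped, and the 3 controls spanned 1.86 on the log2 scale. The means were 9.33 ± 0.69 in siCSRP2 and 7.79 ± 0.98 in siControl (SD, n = 3 each), a log2 difference of 1.54, or 2.91-fold in signal. More RNA per cell and more expressing cells cannot be told apart in total RNA.

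PTGER4 measured 6.03, 6.20 and 6.83 on the siCSRP2 arrays, against 4.80, 5.01 and 5.31 on the siControl arrays. Every siCSRP2 array was above every siControl array, as was the case for 11.5% of all genes. The means were 6.35 ± 0.42 in siCSRP2 and 5.04 ± 0.26 in siControl (SD, n = 3 each), a log2 difference of 1.31, or 2.48-fold. By this difference PTGS2 stood seventh and PTGER4 stood twentieth among 14884 genes, a place that follows from how the pair was chosen.

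Paired by replicate number, both genes were higher on the siCSRP2 array in 3 of 3 pairs. For PTGS2 the differences were 1.52, 2.11 and 1.00 in pairs 1, 2 and 3, with a mean of 1.54 ± 0.56 (SD over the pairs). For PTGER4 they were 1.22, 1.19 and 1.52, with a mean of 1.31 ± 0.18. Replicate 3 was the brightest array of its group for both genes. Leaving out siControl 3 gave 4.28-fold for PTGS2 and 2.72-fold for PTGER4. Leaving out siControl 1 gave 2.25-fold and 2.28-fold.

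**Figure D1:**
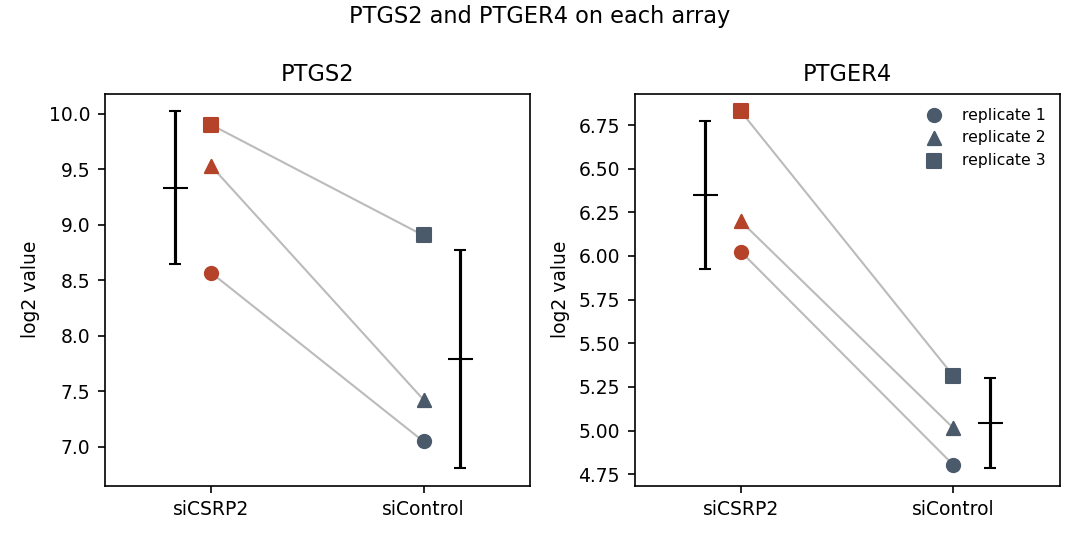
Log2 values of PTGS2 (left) and PTGER4 (right) on each array, siCSRP2 in red and siControl in slate grey, with marker shapes for the replicate number and lines joining arrays of equal number; black bars show the group mean and SD (n = 3). All lines slope down toward siControl, PTGER4 separates the groups, and the siControl 3 value of PTGS2 (8.90) lies above siCSRP2 1 (8.57).

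The promoters of the pair are shown because both genes were higher in the same cells, and they differ in make-up. Each run is the 250 bases before the RefSeq start site (GRCh38.p14), 5′ to 3′ on the gene's strand, with capitals for every match to a searched motif. The motifs were the cAMP response element as its core CGTCA and in full as TGACGTCA, the E-box CACGTG, the C/EBP site TTNNGCAA, the TATA box TATAAA, the CCAAT box, the GC box GGGCGG, the AP-1 site TGANTCA and an NF-kB site, read on both strands.
PTGS2, chr1:186680424-186680673, minus strand: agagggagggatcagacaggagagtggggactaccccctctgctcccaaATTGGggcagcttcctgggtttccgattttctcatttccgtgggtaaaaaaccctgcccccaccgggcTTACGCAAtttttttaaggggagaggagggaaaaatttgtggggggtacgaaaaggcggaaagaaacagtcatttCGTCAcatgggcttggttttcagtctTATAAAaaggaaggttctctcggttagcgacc
PTGER4, chr5:40679665-40679914, plus strand: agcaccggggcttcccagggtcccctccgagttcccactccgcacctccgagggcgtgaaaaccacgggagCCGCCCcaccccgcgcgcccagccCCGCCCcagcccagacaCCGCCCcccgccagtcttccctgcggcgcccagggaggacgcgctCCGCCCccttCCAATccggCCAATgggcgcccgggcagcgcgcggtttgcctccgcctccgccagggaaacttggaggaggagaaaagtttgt

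The PTGS2 run held a TATA box starting at -32, a cAMP core at -58 and a C/EBP match at -133, counted from the start site, and 1 reversed CCAAT box at -201. Of 35114 promoter windows of the same length, 10.7% held the TATA letters, 21.2% the cAMP core and 9.05% the C/EBP letters. The PTGER4 run held none of these. It held 2 CCAAT boxes, at -83 and -74, and 4 reversed GC boxes, motifs found in 32.0% and 42.6% of all windows. Its GC content was 72.8%, against 50.4% for the PTGS2 run and a median of 58.0% over all windows. None of the matches overlapped, and neither run held the searched letters of the full cAMP element, the E-box, AP-1 or NF-kB (1.65%, 6.35%, 6.57% and 1.73% of windows). NF-kB was searched in only 1 form, which needs T letters before its closing C letters. Other forms of the NF-kB site were not searched, so neither run can be said to lack an NF-kB site. For every motif, the lack of a match does not exclude a site in another form, and a match is not evidence of binding.

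Around the pair, the genes of the prostanoid pathway that passed the test all fell. Of 37 measured genes other than PTGS2 and PTGER4, 6 fell, none rose and 31 did not pass (limma, adjusted p below 0.05 over all genes), though the receptor PTGIR passed as a rise after quantile normalization or cyclic loess. Over all genes 6.54% fell and 0.8% rose, 7.34% together. The 6 were the reductase PTGR1, the dehydrogenase HPGD, the carbonyl reductase CBR1, the receptor PTGFR, its regulator PTGFRN and the acyltransferase LPCAT3. In all 6 every siCSRP2 array was below every siControl array, as in 16.2% of all genes. The median log2 difference of the 37 genes was -0.04, against 0.02 over all genes, and 17 of them were below the median gene in both groups, a range in which signal above background was not established. Under the replicate block 8 fell and 2 rose, where 13.1% of all genes fell and 2.67% rose. Without siControl 1, siControl 2 or siCSRP2 2, PTGFRN alone of the 6 passed. Without siCSRP2 3, PTGFRN, CBR1 and PTGR1 passed, HPGD was lost without siCSRP2 1, and all 6 passed without siControl 3. The number of calls over all genes also moved with single arrays, between 91 without siControl 2 and 2620 without siControl 3.

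Of 5 measured genes that break prostaglandins down, HPGD and PTGR1 fell and the other 3 did not pass, where 6.54% of all genes fell. HPGD, the dehydrogenase that oxidises prostaglandin E2, measured 2.91, 3.10 and 3.01 on the siCSRP2 arrays, against 4.29, 4.11 and 3.49 on the siControl arrays. The siCSRP2 values lay close together at about the median gene, and siControl 3 was the lowest control. HPGD fell 1.94-fold (log2 difference -0.96, SE 0.19, limma adjusted p = 0.0258), though it passed in only 1 of the 6 fits with an array left out, that without siControl 3.

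PTGR1 reduces the 15-keto prostaglandins that HPGD makes and also acts on leukotriene B4. PTGR1 measured 4.89, 4.69 and 4.79 on the siCSRP2 arrays, against 5.87, 5.79 and 5.42 on the siControl arrays. The groups did not overlap. It fell 1.87-fold (log2 difference -0.90, SE 0.14, limma adjusted p = 0.0118), a call lost without siControl 1, siControl 2 or siCSRP2 2. The related reductases PTGR2 and PTGR3 had differences of 0.01 and -0.27 and did not pass. CBR3, a carbonyl reductase, had a difference of -0.39, with an adjusted p of 0.147 in limma and 0.0482 with the replicate block.

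Among the enzymes of synthesis, PTGS2 stood apart from PTGS1. PTGS1 measured 2.78, 2.87 and 2.62 on the siCSRP2 arrays, against 2.74, 2.64 and 2.63 on the siControl arrays, with a difference of 0.09 (95% interval -0.17 to 0.34) and both groups below the median gene. The prostaglandin E synthases did not pass: the inducible microsomal enzyme PTGES had a difference of -0.10 (-0.36 to 0.17), the cytosolic PTGES3 -0.12 (-0.46 to 0.21) and PTGES2 -0.42 (adjusted p = 0.160, and 0.0390 with the replicate block, as a fall). CBR1, which converts prostaglandin E2 to F2alpha and also reduces many other carbonyls, measured 3.76, 3.53 and 3.23 in siCSRP2, against 4.57, 4.54 and 4.27 in siControl. It fell 1.94-fold without overlap (log2 difference -0.96, SE 0.16, limma adjusted p = 0.0134), a call lost without siControl 1, siControl 2 or siCSRP2 2. The synthases of the other prostanoids, PTGDS, HPGDS, PTGIS and TBXAS1, had differences between 0.03 and 0.27, and none passed, nor did GSTM2 (-0.27), a glutathione transferase with prostaglandin E synthase activity. The first 4 were below the median gene in both groups, as were PTGS1 and PTGES.

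Of 7 measured genes listed with the prostanoid receptors beside PTGER4, the receptor PTGFR and its regulator PTGFRN fell, where 6.54% of all genes fell. The other 5, all receptors, did not pass. PTGFR, the receptor of prostaglandin F2alpha, which couples to calcium release rather than cyclic AMP, measured 4.46, 4.41 and 4.50 on the siCSRP2 arrays, against 5.19, 5.09 and 4.91 on the siControl arrays. It fell 1.53-fold without overlap (log2 difference -0.61, SE 0.11, limma adjusted p = 0.0195). The call was lost at adjusted p = 0.0594 after quantile normalization and 0.0522 after cyclic loess. It was also lost without siControl 1, siControl 2, siCSRP2 2 or siCSRP2 3.

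PTGFRN, an immunoglobulin superfamily protein that binds tetraspanins and was named as a negative regulator of PTGFR, measured 3.62, 4.05 and 3.86 on the siCSRP2 arrays, against 5.45, 5.47 and 4.90 on the siControl arrays. It had the largest difference of the 37 tested pathway genes, a 2.69-fold fall (log2 difference -1.43, SE 0.18, limma adjusted p = 0.00649), and it passed in each of the 6 fits with 1 array left out. The prostacyclin receptor PTGIR, which also raises cyclic AMP, measured 3.84, 3.92 and 4.10 in siCSRP2, against 3.40, 3.52 and 3.58 in siControl. The groups did not overlap, but the difference of 0.46 (SE 0.12) missed the threshold in limma at adjusted p = 0.0504. PTGIR passed as a rise after quantile normalization (0.0408), after cyclic loess (0.0403) and with the replicate block (0.0239). PTGDR2, a prostaglandin D2 receptor, had a difference of 0.38 (SE 0.11, limma adjusted p = 0.0808). It passed with the replicate block (0.0454), but not when quantile normalization was added to the block (0.0760). The EP receptor PTGER3 had a difference of 0.12 (adjusted p = 0.530), PTGDR 0.06 and the thromboxane receptor TBXA2R 0.02, with both groups of each below the median gene. PTGER1 and PTGER2 were not analysed here.

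**Figure D2:**
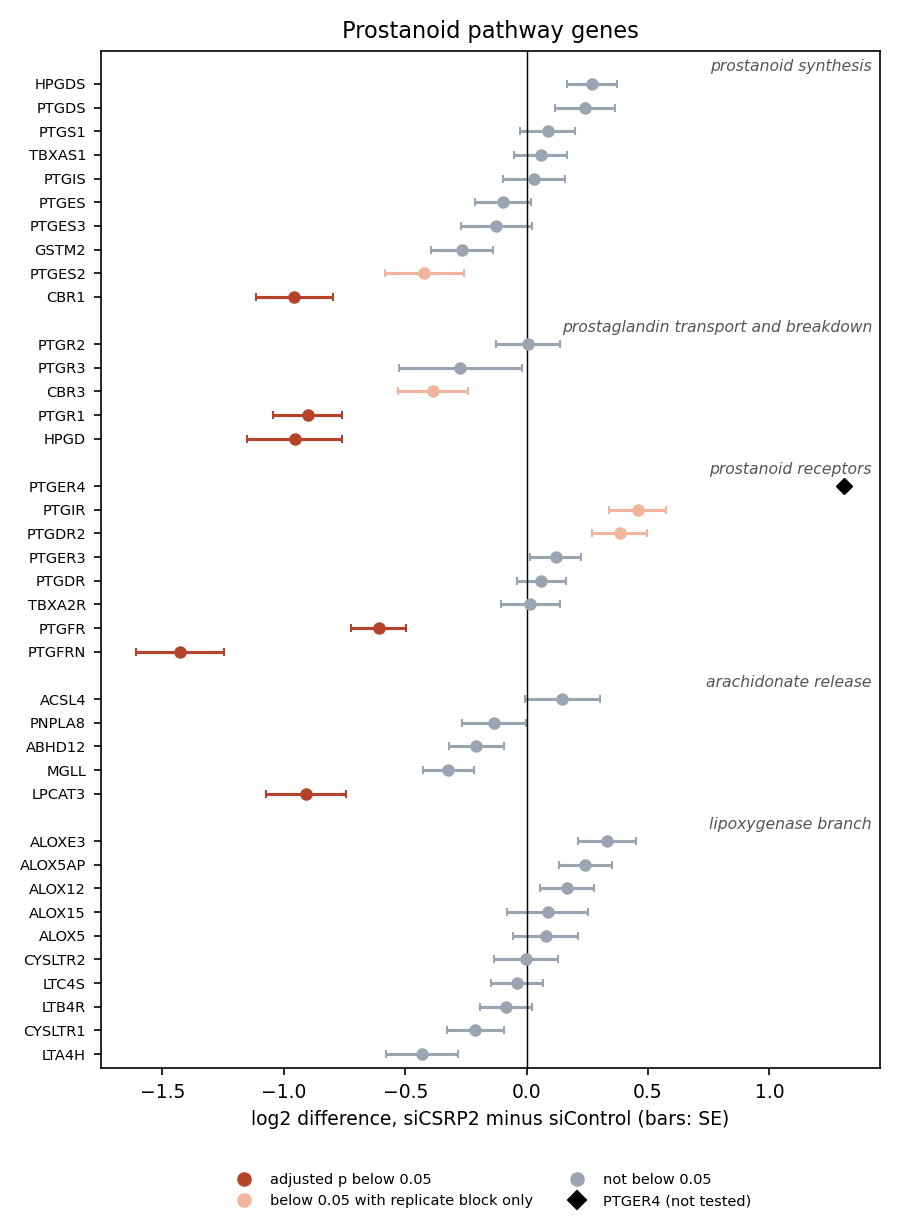
Log2 difference, siCSRP2 minus siControl, of 37 tested prostanoid pathway genes and of PTGER4 (black diamond, not tested), grouped by role; bars are the SE from limma, red marks an adjusted p below 0.05 and light red a value below 0.05 only with the replicate block. The 6 red genes, from PTGFRN (-1.43) to PTGFR (-0.61), all lie below 0, and PTGER4 (1.31) lies furthest above it.

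Of 5 measured genes of arachidonate release and return, LPCAT3 fell and the other 4 did not pass, where 6.54% of all genes fell. LPCAT3, an acyltransferase that returns arachidonate to membrane phospholipids, measured 4.72, 5.01 and 4.95 in siCSRP2, against 5.98, 5.97 and 5.46 in siControl. It fell 1.88-fold without overlap (log2 difference -0.91, SE 0.16, limma adjusted p = 0.0176), and the call was lost without siControl 1, siControl 2, siCSRP2 2 or siCSRP2 3. The monoacylglycerol lipase MGLL, the hydrolase ABHD12, the phospholipase PNPLA8 and the arachidonate ligase ACSL4 had differences of -0.32, -0.21, -0.14 and 0.15 and did not pass, though MGLL passed as a fall after median centring (-0.41, adjusted p = 0.0442 in limma). In the lipoxygenase branch, which turns arachidonate into leukotrienes, none of 10 measured genes passed in limma or with the replicate block, and the smallest adjusted p was 0.119 for LTA4H (-0.43), which makes leukotriene B4. After it came the epidermal lipoxygenase ALOXE3 (0.33), the activating protein ALOX5AP (0.24) and the leukotriene receptor CYSLTR1 (-0.21). In limma with array weights LTA4H passed as a fall (adjusted p = 0.0196) and ALOXE3 as a rise (0.0420). LTA4H also passed as a fall without siControl 3 (0.0429). Of these 10 genes 7 were below the median gene in both groups.

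Downstream of EP4, genes that carry or end a cyclic AMP signal were examined. Of 27 measured signalling genes, 1 rose and 3 fell, beside 0.8% and 6.54% of all genes. The Gs protein gene GNAS (0.23) and the adenylyl cyclase genes ADCY1 to ADCY9 (-0.33 to 0.18) did not pass. Those that fell included both measured PDE7 phosphodiesterases, which degrade cyclic AMP. PDE7A measured 3.45, 3.11 and 2.98 in siCSRP2, against 4.46, 4.53 and 4.45 in siControl, a 2.46-fold fall that passed in each of the 6 fits with 1 array left out (log2 difference -1.30, SE 0.14, limma adjusted p = 0.00326). PDE7B measured 2.58, 2.80 and 2.73 in siCSRP2, against 3.62, 3.69 and 3.41 in siControl, and fell (log2 difference -0.87, SE 0.12, adjusted p = 0.00833 by limma), a call lost without siControl 2. Its siCSRP2 values all lay below the median gene, where signal above background was not established, so no fold is given. Neither gene's groups overlapped. PDE8A, another phosphodiesterase of cyclic AMP, had a difference of -0.39 and did not pass.

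GRK5, a kinase that phosphorylates active G protein coupled receptors, measured 4.17, 4.38 and 4.34 in siCSRP2, against 5.18, 5.26 and 4.83 in siControl, and fell 1.73-fold (log2 difference -0.79, SE 0.14, limma adjusted p = 0.0161). It did not pass without siControl 1, siControl 2, siCSRP2 2 or siCSRP2 3. CREB5, a factor of the CREB and ATF family that binds cAMP response elements, measured 4.92, 5.53 and 5.98 in siCSRP2, against 3.50, 3.81 and 4.24 in siControl. It rose 3.08-fold without overlap (1.62, SE 0.27, adjusted p = 0.0144 by limma), a call lost without siControl 1, siControl 2 or siCSRP2 2. CREB1 and the CRTC coactivators had differences between -0.12 and 0.11 and did not pass. With the replicate block the coactivator EP300 (0.60) also rose and the kinase GRK6 (-0.41) also fell.

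None of 19 measured genes listed as targets of CREB or cyclic AMP passed in limma, though 16 of the 19 differences were above 0. Their median was 0.22, against 0.02 over all genes, and the share of all genes with a difference above 0 was not counted. With the replicate block 5 rose, where 2.67% of all genes rose: KLF4 (log2 difference 1.06, adjusted p = 0.00861), ATF3 (0.73, 0.0337), FOSB (0.42, 0.0346), JUNB (0.52, 0.0393) and PER1 (0.68, 0.0492). All 5 answer many other stimuli as well. KLF4 alone also passed after quantile normalization or cyclic loess (adjusted p = 0.0354 and 0.0356). On siControl 3 the target list lay 0.18 above the siControl mean (median over its genes), beside 0.24, 0.17 and 0.26 on siCSRP2 1, 2 and 3, and -0.24 and -0.02 on siControl 1 and 2. Of the 19 genes 14 had their highest control value on siControl 3, as PTGS2 did, against 35.0% of all genes.

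**Figure D3:**
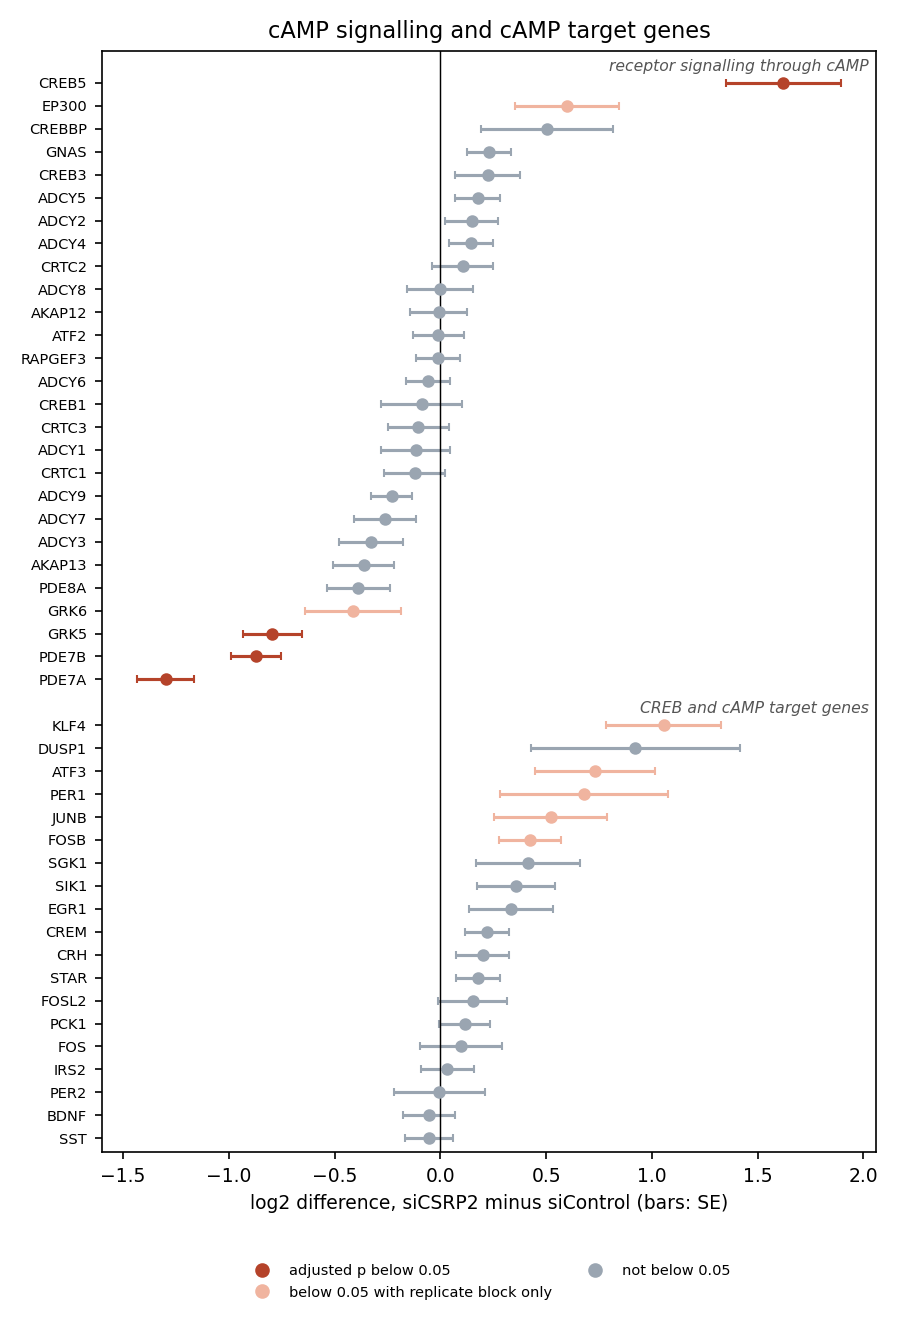
Log2 difference, siCSRP2 minus siControl, of 27 genes of cyclic AMP signalling (top) and 19 listed target genes (bottom); bars are the SE from limma, with red for an adjusted p below 0.05 and light red for below 0.05 only with the replicate block. CREB5 (1.62) lies furthest right, PDE7A (-1.30) furthest left, and the 5 target genes in light red run from FOSB (0.42) to KLF4 (1.06).

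The genes listed as acting on PTGS2 transcription or on its mRNA, in either direction, gave 1 call among 13 measured genes, or 7.69%, close to the 7.34% called over all genes. TIA1, an RNA-binding protein that represses translation of PTGS2 mRNA, fell 1.45-fold (log2 difference -0.54, SE 0.12, limma adjusted p = 0.0354), a call lost without siControl 1, siControl 2, siCSRP2 1 or siCSRP2 2, and after quantile normalization, cyclic loess or trend and robust moderation. The NF-kB subunit REL measured 6.89, 7.35 and 7.45 in siCSRP2, against 5.59, 6.12 and 6.77 in siControl. Its groups did not overlap, and its difference of 1.07 (SE 0.28) had an adjusted p of 0.0531 in limma and 0.00317 with the replicate block. After quantile normalization or cyclic loess REL passed as a rise and was the only call of this list. REL also passed with trend and robust moderation, the filter on dim genes, array weights or without siControl 3. It did not pass after median centring, with the mean of probe sets or in the other fits with an array left out. JUN, which rose with the block (0.64, adjusted p = 0.0241), had an adjusted p of 0.173 without it.

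Of 19 measured genes commonly induced by the same stimuli as PTGS2, 2 fell in limma and none rose, beside 6.54% and 0.8% of all genes: the collagenase MMP1 (log2 difference -1.43, adjusted p = 0.0298) and the chemokine CCL2 (-2.66, adjusted p = 0.0418). The MMP1 call was lost without siControl 2 or any 1 siCSRP2 array, and CCL2 passed only without siControl 3, among the fits with an array left out. With the replicate block 6 rose, where 2.67% of all genes rose: the hyaluronan synthase HAS2 (1.72, adjusted p = 0.00410), the cytokine IL11 (1.19, 0.00286), the chemokine CCL20 (1.06, 0.00185), IER3 (0.89, 0.00558), the adhesion molecule ICAM1 (0.63, 0.0231) and TNF (0.47, 0.0260). Without the block their adjusted p ran between 0.0658 and 0.260 in limma, and IER3 and TNF had 11 and 8 probe sets, of which the brightest was used. HAS2 and CCL20 also passed as rises without the block, under trend and robust moderation or the filter on dim genes. All 6 rose with array weights, all but TNF without siControl 3, and CCL20 alone of them without siCSRP2 1. As with PTGS2, 15 of the 19 genes had their highest control value on siControl 3, against 35.0% of all genes.

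Among 12 measured receptors that can drive PTGS2 expression, 5 fell and none rose, beside 6.54% and 0.8% of all genes. They were the thrombin receptor F2R (log2 difference -1.01, limma adjusted p = 0.0118), the lysophosphatidic acid receptor LPAR1 (-0.87, 0.0144), the bradykinin receptor BDKRB2 (-0.66, 0.0174), the aryl hydrocarbon receptor AHR (-0.55, 0.0440) and the double-stranded RNA sensor TLR3 (-1.26, 0.0449). Without siControl 1, siControl 2 or siCSRP2 2 none of the 5 passed, without siCSRP2 3 LPAR1 alone did, and TLR3 was lost without siCSRP2 1. TLR3 and AHR were lost after cyclic loess, and AHR also after quantile normalization and with trend and robust moderation. BDKRB2, which has 2 probe sets, was lost when their mean was used (-0.42, adjusted p = 0.0705). The siCSRP2 values of BDKRB2 and TLR3 all lay below the median gene. EGFR had a difference of -0.05 (95% interval -0.45 to 0.35). The interleukin 1 receptor partner IL1RAP had a difference of 0.87 (adjusted p = 0.117 in limma, and 0.0144 with the replicate block). With the block 6 of the 12 fell and 1 rose, where 13.1% of all genes fell and 2.67% rose. The fall added by the block was the receptor TLR4. It also passed as a fall after median centring, with array weights, without siControl 3 and without siCSRP2 2.

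The 5 genes most like PTGS2 across the 6 arrays and the 5 most like PTGER4 had no gene in common. Likeness was the root mean square difference between profiles after each gene was centred on its own mean, among the 7442 genes above the median. For PTGS2 the nearest were HAS2 (0.15), the nuclear factor CSRNP1 (0.18), IL11 (0.23), the interleukin 33 receptor IL1RL1 (0.24) and the deubiquitinase OTUD1 (0.25), where the median gene stood at 1.13. All 5 had siControl 3 above siCSRP2 1, as PTGS2 did. That order of arrays, siControl 3 above the lowest siCSRP2 array and both other controls below it, occurred in 9.57% of all genes. Their differences ran from 1.19 to 1.72.

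For PTGER4 the nearest were the homeobox gene HOXB9 (0.13), the interferon-induced ligase HERC5 (0.15), the BMP antagonist NOG (0.15), the reductase CYB5R2 (0.21) and the chondroitin sulfate enzyme CSGALNACT2 (0.21), with a median of 0.81 over all candidates. In all 5 the groups did not overlap, in the direction of PTGER4, as in 11.5% of all genes. In each, siCSRP2 3 was the highest array, a trait not counted over all genes. Their differences ran from 0.97 to 1.44. Nearness to a gene that was itself chosen for its difference carries that difference along, so no test is given for likeness in either set. PTGER4 was the 41st nearest gene to PTGS2, and PTGS2 the 324th nearest to PTGER4, among the 7442 genes. The root mean square difference between the 2 members was 0.50, below the medians of 1.13 for PTGS2 and 0.81 for PTGER4.

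**Figure D4:**
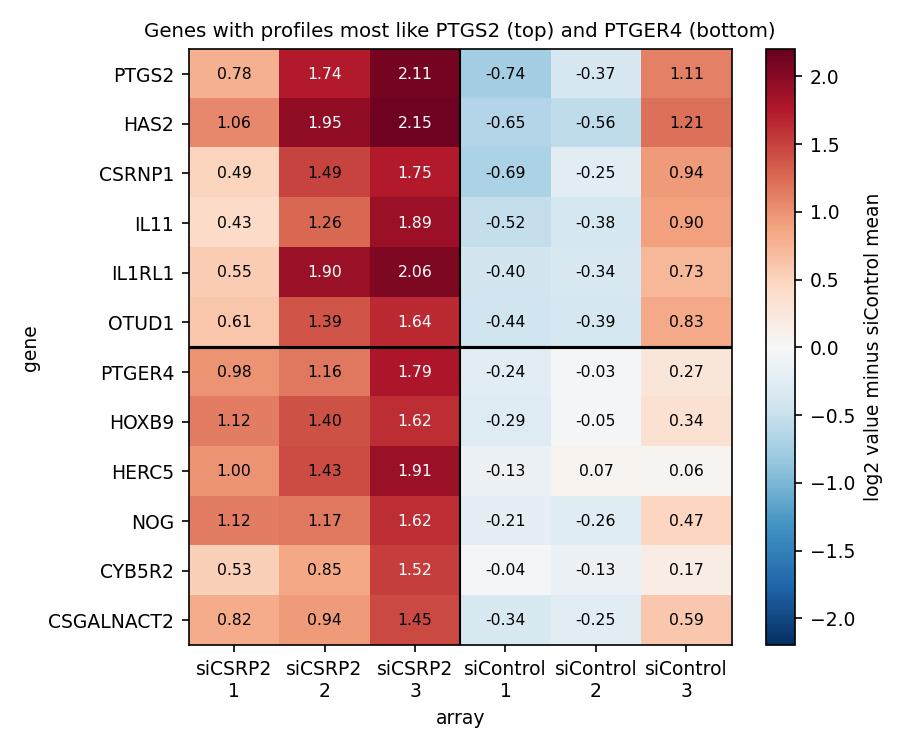
Log2 value minus the siControl mean, by array (columns, siCSRP2 left of siControl), for PTGS2 and the 5 genes nearest to it (top) and PTGER4 and the 5 nearest to it (bottom); red is above and blue below the siControl mean. On siControl 3 the PTGS2 set lies at 0.73 to 1.21, while the PTGER4 set lies at 0.06 to 0.59.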

How the data were processed

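The authors deposited 1 log2 value per probe set and array; base 2 was judged from the range of the values. The submitters' processing notes list Partek. How background was corrected and values were normalized, and the build, is not given in the sources used here. Probe sets were named through the platform annotation: 16098 of 53617 had 1 gene symbol, and the brightest probe set over the 6 arrays stood for each of 14884 genes. Replicates are not stated to be separate cultures, so p-values measure only how far these arrays spread, possibly for technical reasons, and the number of arrays limits precision.

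Groups were compared across all genes with limma 3.58.1 in R 4.3.3 (lmFit, eBayes, two-sided, Benjamini-Hochberg over all genes, threshold 0.05), after a check on simulated data. The members, the 14 gene lists (286 genes, 165 measured) and the tests were chosen with earlier results of these data known. Named are the members, CSRP2, pathway genes past the threshold or among the 4 smallest adjusted p of their list, all measured synthases and receptors, up to 8 past the threshold in other lists, and 5 nearest genes per member; other genes, including those past it only with the replicate block, were named after their values were seen. Only 1 olfactory receptor gene was named, so the planned background from that family was replaced by the median gene. Same-numbered arrays deviated together (correlations of 0.30, 0.19 and 0.32 across genes), which was taken as pairing; the labels do not state it. Alternatives were the replicate block, 3 scalings, array weights, trend and robust moderation, a filter on dim genes, the mean of probe sets and leaving out each array. Promoter sequences are RefSeq's (GRCh38.p14).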

Additional observations from a re-analysis of the deposited data

How the results depend on the processing

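The differences of PTGS2 and PTGER4 stayed above 0 under all 15 alternatives, which is a description only, since the pair was chosen by this contrast. The replicate block, trend and robust moderation, the filter on dim genes and the mean of probe sets could not change these differences. Leaving out 1 array could not reverse PTGER4, whose groups did not overlap. The differences ran from 1.17 (without siControl 1) to 2.10 (without siControl 3) for PTGS2, and from 1.07 (without siCSRP2 3) to 1.47 (without siCSRP2 1) for PTGER4. After quantile normalization they were 1.60 and 1.46. CSRP2 did not pass under any of them. No named gene that passed changed direction.

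Counts of calls moved more than values. Measured were 37 genes of the prostanoid pathway, 46 of cyclic AMP signalling and targets and 44 PTGS2 regulators and companions, of 14884 genes. With the replicate block 2348 genes passed, and 10, 11 and 18 in these lists, against 1093, 6, 4 and 8 without it. With the block 13.1% of all genes fell and 2.67% rose, against 6.54% and 0.8% without it. With quantile normalization and the replicate block together, 2010 genes passed, 12 in the cyclic AMP lists and 19 among regulators and companions. With array weights the counts were 2924, 12, 12 and 20. Leaving out 1 array gave 91 to 2620 genes, 1 to 9 in the pathway, 1 to 11 in the cyclic AMP lists and 0 to 20 (without siControl 2 and siControl 3) among regulators and companions. The cause was not tested.

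Falls made up 89.1% of all calls on the deposited values, 94.5% with median centring, 76.0% with quantile normalization and 77.7% with cyclic loess. Signal over background is not known for genes below the median, which limits what their small differences show.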
